A study of Homo sapiens with 6 samples.

Results

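The transcripts described here are those of 7 genes: CIRBP and RBM3, which encode cold-inducible RNA-binding proteins, CLK1, CLK2, CLK3 and CLK4, which encode the CDC-like kinases, and RSRP1, which encodes an arginine- and serine-rich protein. They were taken by gene symbol and had 17 probe sets on the array, out of 54613 probe sets and 19775 genes in all. The group was chosen by the pressure differences of CIRBP and RSRP1 in these same data, with related genes added. Its differences between the pressures are therefore a description, and no p-value is given for them.

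RNA came from HaCaT cells, an established human keratinocyte line, so that every culture has the same origin and no other keratinocyte source was set beside it. In the negative pressure group, 3 cultures were held in a negative-pressure incubator at a gradient of 125 mmHg for 12 h. In the ambient pressure group, 3 cultures stood at normal pressure for the same 12 h, and no genetic change or other agent is named for either group. The labels call the cultures biological replicates and number them 1 to 3 in each group.

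CIRBP and RBM3 are small proteins with an RNA recognition motif followed by a glycine-rich tail, and both are known for rising when cells are mildly cooled and for falling when cells are warmed. They bind other transcripts and influence their stability and translation. The CLK kinases phosphorylate the serine- and arginine-rich splicing factors called SR proteins, and their own transcripts are known to keep introns in the nucleus that are spliced out under stress. RSRP1 is less studied, and its sequence resembles that of splicing-related RS proteins.

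The promoters of the 3 genes with a probe set past the threshold used below are shown because CIRBP and RBM3 lay on the same side and RSRP1 on the opposite side. All 7 genes had a promoter in the RefSeq-based table (GRCh38.p14), each of 300 bases, with 250 before and 50 after the annotated start. The CIRBP window is chr19:1269082-1269381 (plus strand), the RBM3 window chrX:48574234-48574533 (plus strand) and the RSRP1 window chr1:25338205-25338504 (minus strand). Capitals mark matches on either strand to the GC box GGGCGG, to CCAAT, and to the paired heat shock element units TTCNNGAA and GAANNTTC.
CIRBP: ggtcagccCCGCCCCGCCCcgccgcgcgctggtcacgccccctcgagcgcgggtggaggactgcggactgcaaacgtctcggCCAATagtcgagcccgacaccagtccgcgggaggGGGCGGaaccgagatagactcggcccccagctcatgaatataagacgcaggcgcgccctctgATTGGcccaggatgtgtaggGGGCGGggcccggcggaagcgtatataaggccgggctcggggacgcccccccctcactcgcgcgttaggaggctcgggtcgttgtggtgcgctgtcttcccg
RBM3: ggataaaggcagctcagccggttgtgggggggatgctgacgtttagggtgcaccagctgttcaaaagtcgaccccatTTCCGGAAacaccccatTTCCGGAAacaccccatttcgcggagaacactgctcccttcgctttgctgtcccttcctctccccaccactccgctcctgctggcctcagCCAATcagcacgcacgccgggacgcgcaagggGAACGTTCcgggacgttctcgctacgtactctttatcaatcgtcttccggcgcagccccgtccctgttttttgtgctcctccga
RSRP1: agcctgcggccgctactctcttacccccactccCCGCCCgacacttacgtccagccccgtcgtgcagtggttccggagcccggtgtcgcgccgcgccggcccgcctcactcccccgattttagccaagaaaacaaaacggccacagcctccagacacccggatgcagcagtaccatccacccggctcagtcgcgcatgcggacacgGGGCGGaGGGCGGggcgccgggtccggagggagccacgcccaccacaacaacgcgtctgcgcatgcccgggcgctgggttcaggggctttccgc
The CIRBP window held 4 GC boxes, a pair of which overlap, and 2 CCAAT boxes. The RBM3 window held 1 CCAAT box, 3 paired heat shock units and 0 GC boxes. Of these units 2 read TTCCGGAA, letters that also hold GGAA, the core of sites for ETS factors, on both strands. The RSRP1 window held 3 GC boxes and neither of the other motifs. Of 35116 such windows, 45.0% hold at least 1 GC box, 34.6% a CCAAT box and 13.5% a paired heat shock unit. By number, 9.06% hold at least 4 GC boxes, 10.8% at least 2 CCAAT boxes and 0.194% at least 3 paired heat shock units. A match is a description of letters and not of a factor's binding.

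Values are the authors' log2 expression values, one per probe set and array, where a probe set is a group of short oligonucleotides for 1 transcript region. The difference is negative minus ambient pressure, so that a difference of 1 is a doubling. Differences were fitted with limma over all probe sets, and a probe set is said to pass where the Benjamini-Hochberg adjusted p was under 0.05. Of all probe sets, 0.276% passed with higher and 0.203% with lower values under negative pressure. Of the 17 probe sets described here, 1 passed higher (RSRP1) and 2 passed lower (1 of CIRBP and 1 of RBM3). Nothing is read from these counts, because this contrast chose the group. With the replicate number as a block, 2 were higher and 4 lower, against 1.15% and 1.12% of all probe sets.

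The 3 that passed did so with all 6 arrays or without negative pressure replicate 3. Leaving out ambient replicate 1, 2 or 3, or negative pressure replicate 1 or 2, left 0 of the 17 past the threshold. The differences themselves stayed between -1.45 and -1.14 for the CIRBP set, between -1.45 and -1.14 for the RBM3 set and between 1.44 and 1.93 for the RSRP1 set.

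As to the arrays, their medians lay between 3.81 and 3.89. The first principal component, with 40.4% of the variance, placed both replicate 3 arrays (40.0 and 46.8) apart from the other 4 (-24.4 to -14.8), and pressure separated along the second, with 28.8%. The ACTB control probes give a sign of RNA quality, and their 3' signal exceeded their 5' signal by 0.27 and 0.42 (log2) on the replicate 3 arrays and 0.64 to 0.85 on the others. This excess was 0.54 ± 0.25 at ambient and 0.69 ± 0.24 at negative pressure (SD, n = 3 each), and between arrays of the same number it was higher under negative pressure by 0.07, 0.21 and 0.15. For GAPDH it was 0.18 ± 0.03 and 0.10 ± 0.06, and between the same arrays it differed by -0.12, -0.05 and -0.07. Both shifts ran one way in all 3 pairs, each with p = 0.25 in a two-sided exact permutation test within pairs, the smallest p that 3 pairs allow. The keratinocyte genes KRT5, KRT14, CDH1, DSG3 and SFN had means of 8.35 to 12.50. Of these DSG3, a desmosomal cadherin gene, stood at 0.63 ± 0.17 (SE; limma adjusted p = 0.190, and 0.0383 with the replicate block) and KRT5 at 0.33 ± 0.13 (adjusted p = 0.417), both with groups that did not overlap, and KRT14, CDH1 and SFN lay between -0.14 and 0.15. Of the other marker genes, COL1A1 had a mean of 6.78 and the rest lay between 1.80 and 5.04. CDH5, an endothelial cadherin gene, fell from 4.90, 4.72 and 4.81 to 4.25, 3.92 and 3.86 (-0.80 ± 0.14, SE; limma adjusted p = 0.0492), and the other 2 endothelial genes, PECAM1 and VWF, stood at -0.13 and 0.03. The part of the replicate 3 offset, of the control probes and of these markers in the results was not tested.

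CIRBP was lower under negative pressure on its brighter probe sets. On 200810_s_at the ambient arrays read 8.23, 8.36 and 8.18 and the negative pressure arrays 7.10, 7.14 and 6.53. Every negative pressure array lay more than 1 log2 unit below every ambient array. The group means were 8.26 ± 0.09 and 6.92 ± 0.34 (SD, n = 3 each), a difference of -1.33 ± 0.17 (SE), or 2.52-fold lower. Only 18 of the 54613 probe sets had a more negative difference. In whole cultures, fewer cells that express a gene and less of its RNA per cell cannot be told apart.

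The probe set 200811_at, which like 200810_s_at is annotated to the CIRBP transcript NM_001280, read 7.42, 7.33 and 7.03 at ambient and 6.69, 6.49 and 6.13 under negative pressure. The groups again did not overlap, at -0.82 ± 0.17 (SE). This set did not pass in the fit without a block. It passed with the replicate block, with array weights, when the replicate 3 arrays of both groups were dropped, and with cyclic loess normalization. Between arrays of the same number, 200810_s_at differed by -1.13, -1.22 and -1.66 and 200811_at by -0.73, -0.84 and -0.89, so that all 3 numbers showed the lower value on both.

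The other CIRBP probe sets did not show this fall. On 228519_x_at, a set whose suffix marks probes that can match other sequences as well, the ambient arrays read 5.64, 5.66 and 5.99 and the negative pressure arrays 5.91, 5.56 and 6.0. The groups overlapped, and the difference of 0.06 had a 95% interval from -0.29 to 0.42. On 225191_at the difference was 0.03 (95% interval -0.30 to 0.36), at a mean of 3.86. On 230142_s_at it was 0.21 (-0.09 to 0.52), with the negative pressure arrays at 4.0 to 4.06 just above the ambient arrays at 3.58 to 3.96. The latter 2 sets lie close to 3.84, the median of all probe set means, so their signal is weak.

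A test within limma (diffSplice) of whether the probe sets of a gene differ in their pressure difference passed for 0.846% of the 10523 genes with more than 1 probe set. It passed for CIRBP and for CLK3 and for none of RBM3, RSRP1 and CLK4. It uses the contrast that chose the group, so it too is a description here. It pools the spread of a gene's probe sets, and in simulated data its calls were false more often than the nominal rate. CLK3 no longer passed it with quantile normalization repeated, and each time an array was left out CIRBP alone passed, except without ambient replicate 2, where no member did. The position of each probe set in its transcript was not analysed here, so exonic and intronic sets were not told apart.

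**Figure D1:**
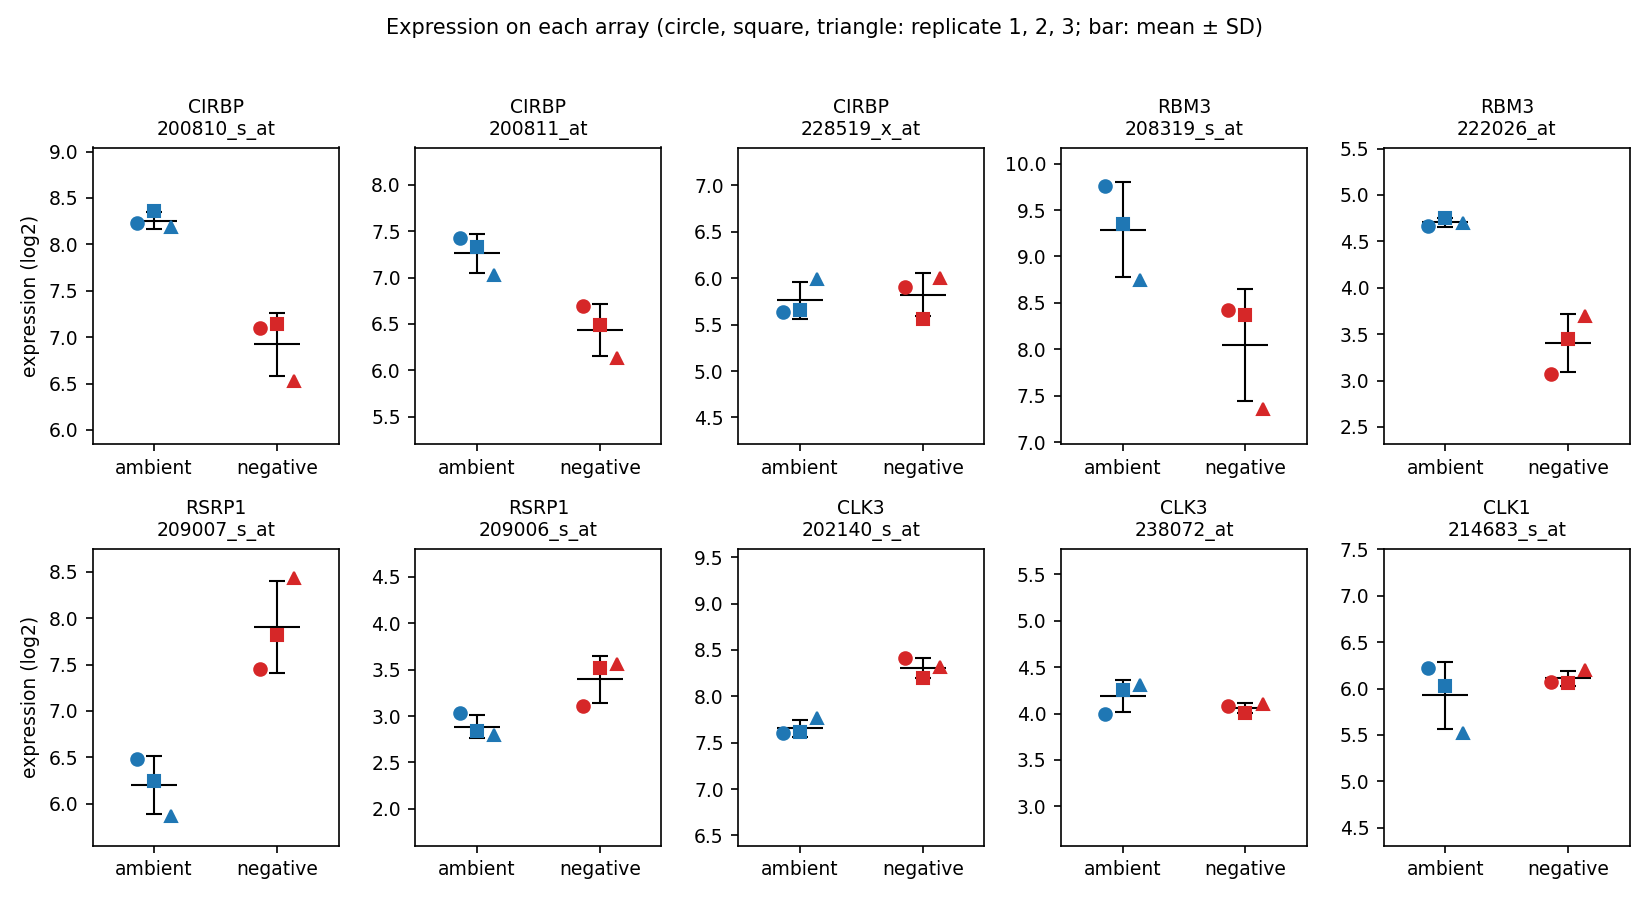
Log2 expression (y axis, each panel spanning the same number of log2 units) of 10 probe sets on each array at ambient (blue) and negative (red) pressure, with circle, square and triangle for replicates 1, 2 and 3 and the bar for mean ± SD. The groups are apart for 2 CIRBP sets, both RBM3 sets, both RSRP1 sets and the CLK3 set 202140_s_at, and they overlap for CIRBP 228519_x_at, CLK3 238072_at and CLK1.

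RBM3, the closest relative of CIRBP in this group, was lower under negative pressure on both of its probe sets. On 208319_s_at, annotated to NM_006743, the ambient arrays read 9.76, 9.35 and 8.75 and the negative pressure arrays 8.42, 8.37 and 7.35. The groups did not overlap, but replicate 3 was the lowest array in each of them. The difference was -1.24 ± 0.32 (SE), or 2.36-fold lower, and its standard error was the largest of the 17 sets.

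The arrays of one number differed much less in this respect: 208319_s_at was lower by -1.34 between the replicates 1, by -0.98 between the replicates 2 and by -1.40 between the replicates 3. This set did not pass in the fit without the block, and it passed with the replicate block and without both replicate 3 arrays (-1.16). Without negative pressure replicate 3 the difference was the smallest of the leave-one-out values, at -0.89, and without ambient replicate 3 it was -1.51.

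On 222026_at the ambient arrays read 4.66, 4.75 and 4.70 and the negative pressure arrays 3.07, 3.44 and 3.69. Here the ambient arrays lay within 0.1 of each other, and replicate 3 was the highest and not the lowest of the negative pressure arrays. The difference was -1.30 ± 0.16 (SE) and passed. All 3 negative pressure arrays lay below 3.84, the median of the probe set means, where the signal is weak and detection is not known. The SE of this difference does not take that in, and the bright set (-1.24) had the larger SE of 0.32. Only 24 probe sets had a more negative difference than 208319_s_at and 21 a more negative one than 222026_at.

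RSRP1 stood on the other side. On 209007_s_at the ambient arrays read 6.48, 6.24 and 5.86 and the negative pressure arrays 7.45, 7.82 and 8.43. The lowest negative pressure array was 0.97 above the ambient array of the same number, which was also the highest ambient one. The means were 6.20 ± 0.31 and 7.90 ± 0.49 (SD, n = 3 each), a difference of 1.70 ± 0.25 (SE) or 3.26-fold, and only 4 probe sets of the whole array had a larger one.

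The size of the RSRP1 difference varied between the numbers more than that of any other of the 17 sets: 0.97 between the replicates 1, 1.57 between the replicates 2 and 2.57 between the replicates 3. Without both replicate 3 arrays it was 1.27 and passed. The second set, 209006_s_at, was dim, with 3.03, 2.83 and 2.79 at ambient and 3.11, 3.52 and 3.57 under negative pressure. It differed by 0.51 ± 0.15 (SE) and did not pass, but its groups did not overlap and its order of replicate numbers was the same as on the bright set (0.07, 0.68 and 0.77).

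**Figure D2:**
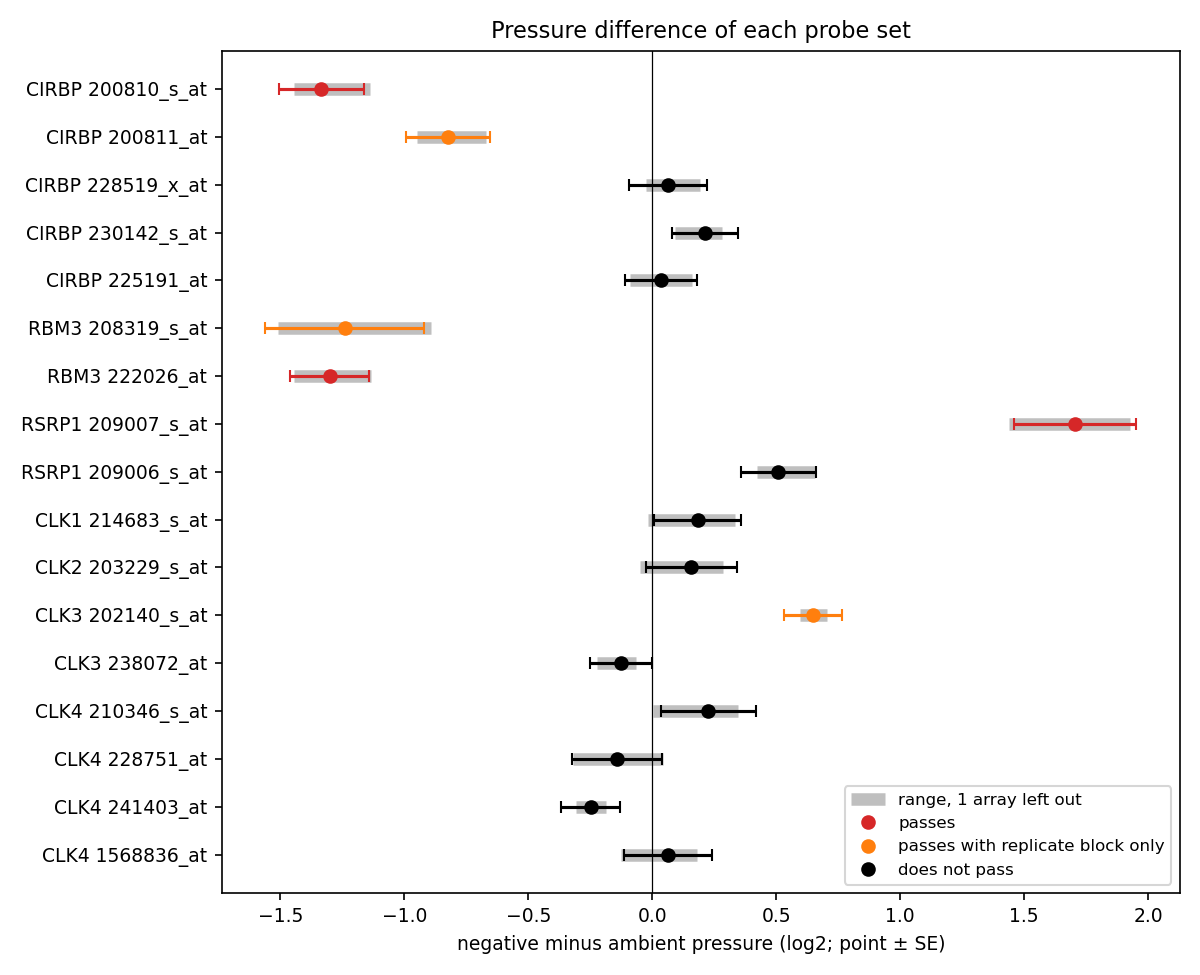
Negative minus ambient pressure difference (x axis, log2; point ± SE) of each of the 17 probe sets, with the grey bar for the range when 1 array is left out. RSRP1 209007_s_at at 1.70 and the CIRBP and RBM3 sets between -1.33 and -0.82 lie farthest from 0, and red points passed, orange points passed only with the replicate block.

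Among the CLK kinases, CLK3 alone had a probe set whose groups were apart above 0. On 202140_s_at (NM_003992) the ambient arrays read 7.60, 7.61 and 7.76 and the negative pressure arrays 8.41, 8.19 and 8.31. Both groups were tight, with SDs of 0.09 and 0.11, and the difference was 0.65 ± 0.12 (SE) or 1.57-fold. It did not pass in the fit of all probe sets and passed with the replicate block, and each array left out moved it only between 0.60 and 0.70.

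The other CLK3 set, 238072_at, read 4.0, 4.26 and 4.31 at ambient and 4.08, 4.0 and 4.10 under negative pressure. It differed by -0.13 (95% interval -0.41 to 0.15), so that the 2 CLK3 sets were 0.77 apart in their differences. This set was the dimmer one, with a mean of 4.12.

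The CLK1 set and the brightest CLK4 set, whose proteins are close relatives, had overlapping groups. The CLK1 set 214683_s_at read 6.23, 6.03 and 5.52 at ambient and 6.07, 6.06 and 6.20 under negative pressure, at 0.18 (95% interval -0.21 to 0.58). The brightest CLK4 set, 210346_s_at, read 6.25, 6.28 and 5.59 at ambient and 6.11, 6.27 and 6.42 under negative pressure, at 0.23 (-0.21 to 0.66). In both, ambient replicate 3 was the low array. Without ambient replicate 3 their differences were -0.02 and 0.00, and without both replicate 3 arrays -0.06 and -0.08. Their small positive values therefore rested on that array.

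The other CLK4 sets were dim, with means of 1.52 to 3.70 and differences from -0.25 to 0.07. On 241403_at the groups did not overlap (2.01, 1.88 and 2.02 at ambient against 1.85, 1.72 and 1.60), but the difference of -0.25 did not pass. CLK2, which like CLK1 has 1 probe set, read 7.13, 7.19 and 7.43 at ambient and 7.25, 7.15 and 7.82 under negative pressure. Its difference of 0.16 (95% interval -0.26 to 0.57) came with replicate 3 as the highest array in both groups.

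Taking all 17 sets, the groups were apart with negative pressure above for 4 and below for 5, against 8.44% and 6.56% of all probe sets. The 4 were both RSRP1 sets, CLK3 202140_s_at and the dim CIRBP set 230142_s_at. The 5 were 2 sets of CIRBP, both of RBM3 and the dimmest but one of CLK4. These counts use the contrast that chose the group. All 7 genes had at least 1 of their sets above the median of the probe set means, and 13 of the 17 sets lay above it.

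**Figure D3:**
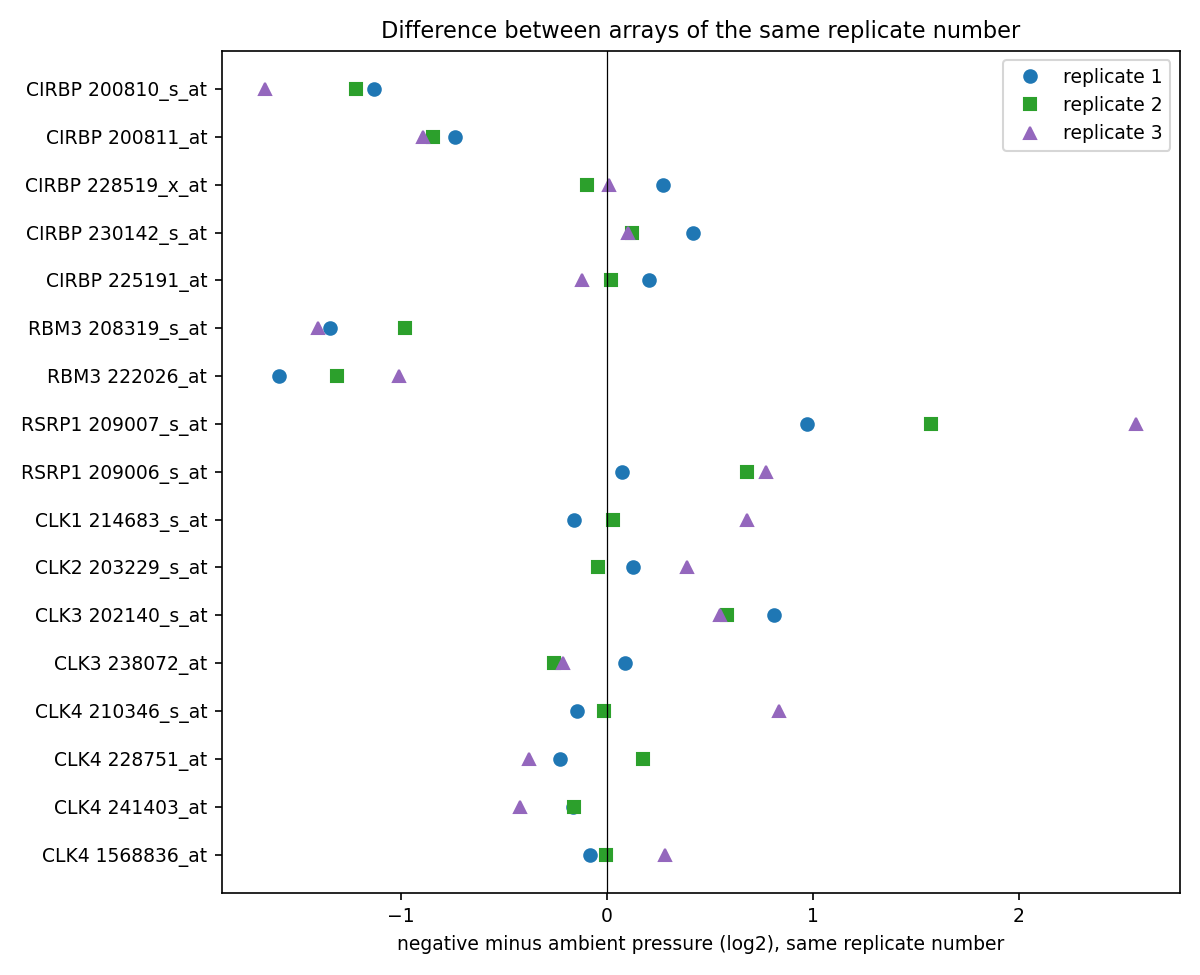
Difference between the negative and the ambient pressure array of the same replicate number (x axis, log2) for each probe set, with circles, squares and triangles for numbers 1, 2 and 3. All 3 numbers lie below 0 for CIRBP 200810_s_at and 200811_at and for both RBM3 sets, and for the dim CLK4 set 241403_at, and all above 0 for both RSRP1 sets, CLK3 202140_s_at and the dim CIRBP set 230142_s_at, while CLK1 and CLK4 210346_s_at are above 0.6 in replicate 3 only.

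**Figure D4:**
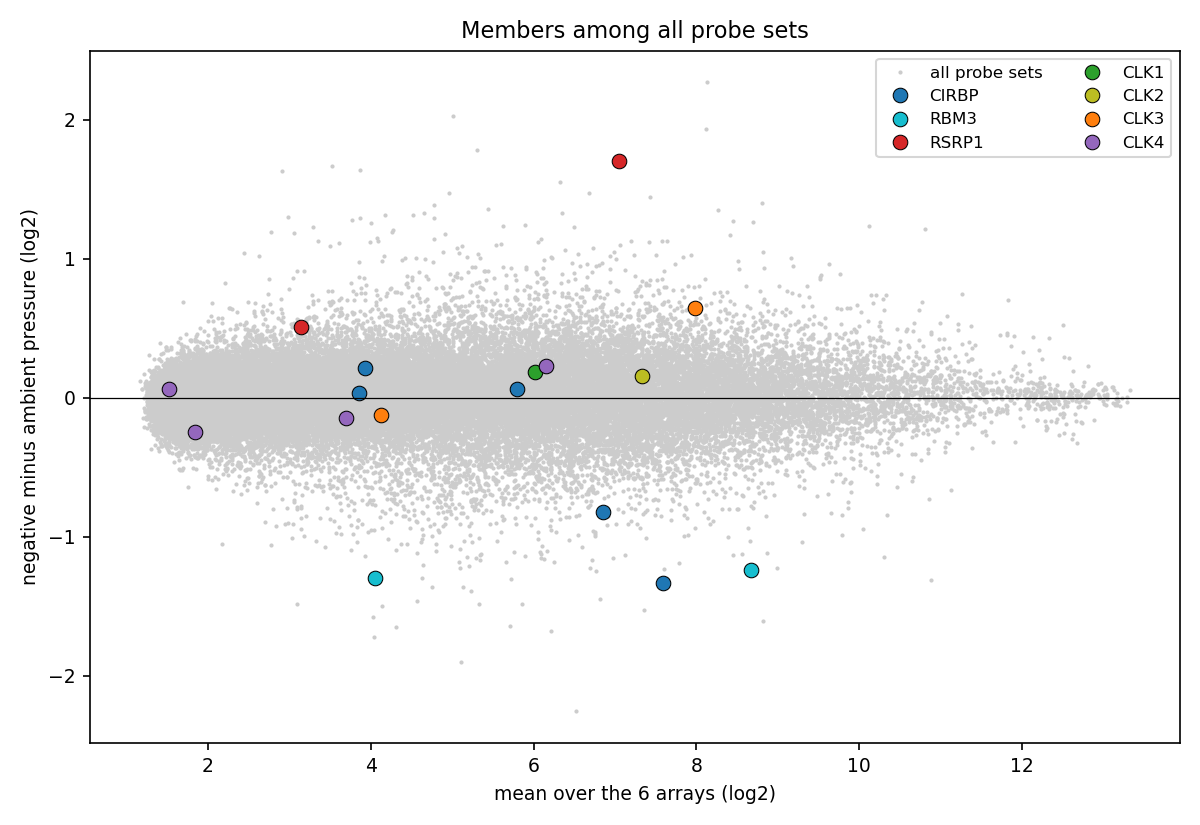
Pressure difference (y axis, log2) against the mean over the 6 arrays (x axis, log2) for all 54613 probe sets (grey) and the 17 described here (colours by gene). RBM3 208319_s_at and CIRBP 200810_s_at lie low in the cloud at means of 8.67 and 7.59, and RSRP1 209007_s_at lies high at 7.05. CIRBP 200811_at lies at -0.82 at a mean of 6.85, and the remaining CIRBP sets and the CLK4 sets lie within the cloud.

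Genes that work beside these proteins were read from 10 lists, with each gene given by its brightest probe set that names it alone. Of all genes taken this way, 0.430% passed higher and 0.212% lower, and the median difference was 0.01. At an unadjusted p under 0.05, in either direction, 11.3% of all genes lay, which is the share to set beside the unadjusted counts of each list. The lists held 134 different genes, of which 119 were measured, and 1 of them passed, HSPB1.

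The SR proteins are the substrates of the CLK kinases. Of 14 listed genes 12 were measured, 0 passed in limma, 1 had an unadjusted p under 0.05, and the median difference was -0.07. SRSF6 read 9.63, 9.58 and 9.14 at ambient and 9.17, 9.16 and 8.83 under negative pressure (-0.40 ± 0.16, SE; limma adjusted p = 0.463). SRSF5 stood at -0.54 ± 0.25 (adjusted p = 0.534), with negative pressure replicate 3 at 8.35 as its lowest array.

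Of the other kinases of SR proteins and their DYRK and HIPK relatives, 13 of 16 were measured, 0 passed and 1 had an unadjusted p under 0.05, with a median of -0.04. HIPK3, a homeodomain-interacting kinase, stood at -0.53 ± 0.16 (SE; limma adjusted p = 0.255) with groups that did not overlap, and passed with the replicate block. The transcription-elongation kinase gene CDK12 stood at -0.24 (adjusted p = 0.702).

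All 33 other RS-rich proteins were measured, 0 passed and 4 had an unadjusted p under 0.05, with a median of 0.02. LUC7L, a U1 small nuclear ribonucleoprotein factor, read 7.07, 7.02 and 7.07 at ambient and 7.76, 7.57 and 7.56 under negative pressure. That difference of 0.58 ± 0.11 (SE; limma adjusted p = 0.0751) did not pass and passed with the replicate block. Its relative LUC7L2 stood at -0.32 ± 0.12 (adjusted p = 0.362), with groups apart in the opposite direction. LUC7L3 stood at 0.37 ± 0.14 (adjusted p = 0.418), with groups apart on the side of LUC7L. Of the 4 genes with an unadjusted p under 0.05, 3 were higher.

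Other RNA-binding proteins resemble CIRBP and RBM3 in part, and not all have the same arrangement of domains. Of the further ones listed as glycine-rich, 13 of 15 were measured, 0 passed and 2 had an unadjusted p under 0.05, with a median of -0.09. HNRNPA3 stood at 0.42 ± 0.16 and HNRNPA0 at -0.36 ± 0.14 (SE; limma adjusted p = 0.378 and 0.428). Of the proteins with a cold shock domain, a different fold from that of CIRBP, 5 of 6 were measured, 0 passed and 0 had an unadjusted p under 0.05. CARHSP1 stood at 0.37 and LIN28B, at a dim mean of 1.97, at -0.41.

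Of the 9 regulators and partners of CIRBP, 0 passed and 1 had an unadjusted p under 0.05 in limma. PRMT1, an arginine methyltransferase that modifies CIRBP, stood at -0.33 ± 0.11 (SE; adjusted p = 0.335) with groups that did not overlap, and the heat-sensitive channel gene TRPV4 at 0.27 (adjusted p = 0.611). Of the 9 transcripts described as bound by CIRBP or RBM3, 0 passed and 2 had an unadjusted p under 0.05. The chemokine gene CXCL8 read 10.50, 10.25 and 9.94 at ambient and 9.57, 9.91 and 8.98 under negative pressure (-0.75 ± 0.23, SE; adjusted p = 0.274), and passed with the replicate block. The cyclooxygenase gene PTGS2 stood at -0.40 (adjusted p = 0.437).

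CIRBP is known to influence the circadian clock through CLOCK. Of 13 clock genes 11 were measured, 0 passed in limma and 3 had an unadjusted p under 0.05. CRY1, a repressor of the clock, stood at -0.51 ± 0.16 and DBP, a clock output factor, at 0.60 ± 0.23 (SE; adjusted p = 0.280 and 0.418). CLOCK itself stood at -0.18.

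Warming is known to raise heat shock genes and to lower CIRBP and RBM3. The part of temperature in the values here was not tested. Of 14 listed heat shock genes 10 were measured, and all 10 were above 0, with a median of 0.25. Of all genes 53.4% were above 0. The list was fixed with earlier results of these data known, so its counts are a description. Of the 10 measured, 5 had an unadjusted p under 0.05 in limma (11.3% of all genes). The same number had groups that did not overlap, all higher, against 8.44% of all probe sets apart on that side. HSPB1, a small heat shock protein gene, was the 1 that rose, from 10.25, 10.24 and 10.11 to 11.39, 11.32 and 11.53 (1.22 ± 0.12, SE; limma adjusted p = 0.0111). It stayed between 1.16 and 1.26 when 1 array was left out, but passed then only without ambient or negative pressure replicate 3. HSPH1, a chaperone of the HSP110 family, stood at 0.54 ± 0.18 (adjusted p = 0.310) and passed with the replicate block. HSPE1, a mitochondrial chaperonin gene, stood at 0.46 ± 0.12 (adjusted p = 0.190) and HSF1, the heat shock transcription factor gene, at 0.26 ± 0.11 (adjusted p = 0.461). Of the same list, BAG3 stood at 0.16 ± 0.22, DNAJB1 at 0.22 ± 0.13 and HSP90AA1 at 0.23 ± 0.13 (SE). Their limma adjusted p were 0.912, 0.685 and 0.660, and their groups overlapped.

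Of 7 long noncoding RNAs listed as nuclear 6 were measured, with a median of -0.15. Where these RNAs lie in the cells was not measured. In limma 0 of them passed, and 0 had an unadjusted p under 0.05. OIP5-AS1 stood at -0.26 ± 0.12 and KCNQ1OT1 at -0.16 ± 0.12 (SE; adjusted p = 0.553 and 0.793). Of these 6 genes, MALAT1 and TUG1 varied most between the negative pressure arrays. MALAT1 read 7.64, 7.81 and 7.88 at ambient and 6.12, 7.47 and 9.34 under negative pressure, and TUG1 read 7.83, 8.01 and 7.91 against 6.60, 7.65 and 8.36. For both the negative pressure replicate 1 was the lowest and replicate 3 the highest array, as for RSRP1 209007_s_at (7.45, 7.82 and 8.43), but their groups overlapped. The RS-rich protein genes NKTR (4.75, 5.69 and 6.97) and PPIG (6.33, 7.25 and 7.82) ran in the same order under negative pressure. Others of that list ran in the opposite order, among them SON (9.54, 9.20 and 8.70), CCNL1, RBM5, RBM6, RBM23 and LUC7L. How common either order is among all genes was not counted. The part of these array differences in the RSRP1 values was not tested.

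**Figure D5:**
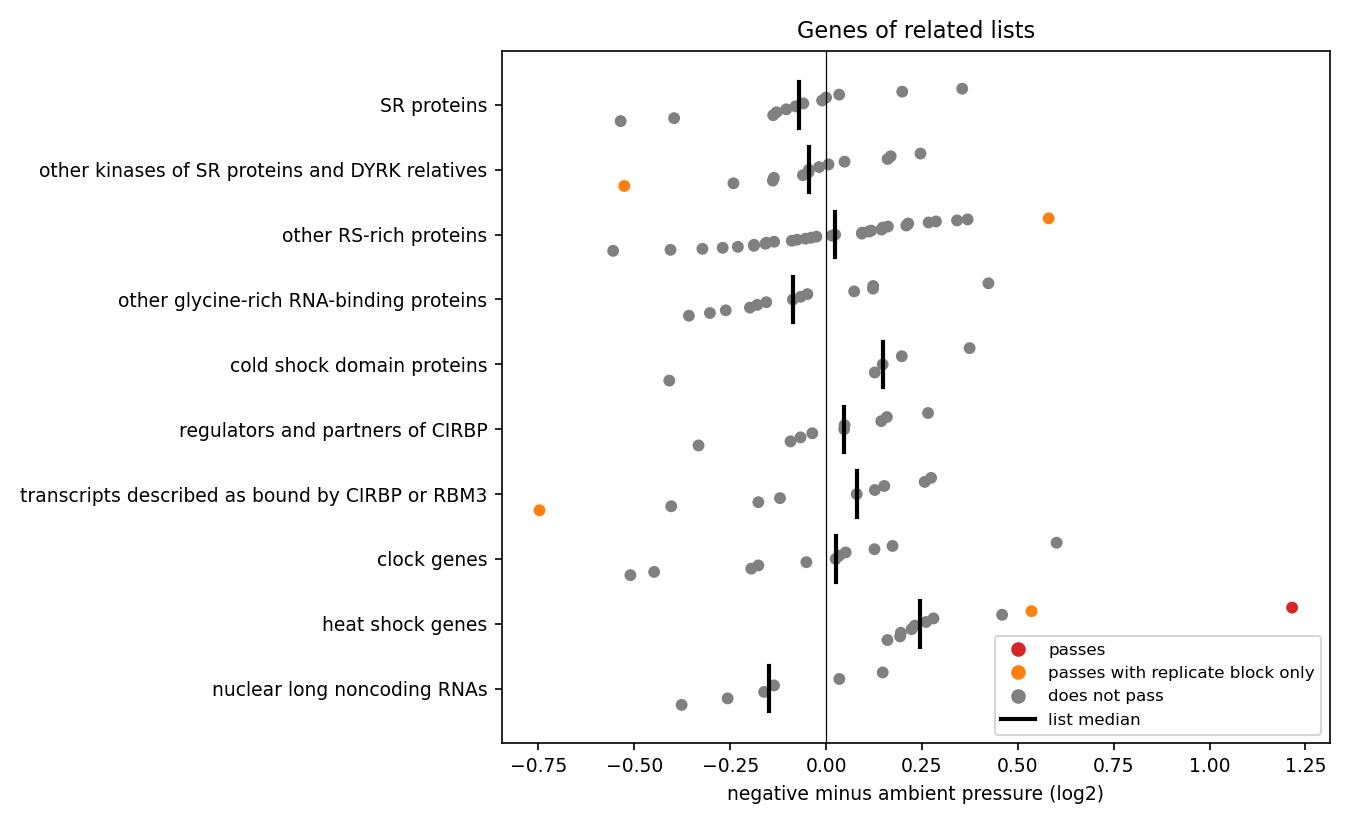
Negative minus ambient pressure difference (x axis, log2) of each measured gene in 10 lists (rows), with the black bar for the list median. HSPB1 at 1.22 is the red point that passed, 4 orange points passed only with the replicate block, and the medians lie between -0.15 and 0.25.

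As a description of likeness, the brightest set of CIRBP, RBM3, RSRP1 and CLK1 was set against all probe sets of other genes with a mean above the median, over the 6 arrays. The 6 points share the 2 conditions and the replicate 3 offset, so high values of r are common. For CIRBP the 5 highest Pearson r, from 0.995 to 0.998, were those of TMPO-AS1, EIF5A2, ATP9B, IL1A and MTFR2, with differences from -1.46 (EIF5A2) to -0.44 (MTFR2). For RBM3 they were those of MIPEP, SLC30A7, NSRP1, CNOT9 and KLHL7 (0.994 to 0.997), with differences from -0.71 to -0.28. The lists of CIRBP and RBM3 share no gene. They hold 5 out of 23438 and 5 out of 23441 probe sets, with values of r close together, so nothing is read from that.

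For RSRP1 the closest were LXN, S1PR5, LRG1, TRIM56 and HACD2 (0.994 to 0.996), of which LXN, a carboxypeptidase inhibitor gene, had the largest difference at 1.05. For CLK1 they were PPP2CB, TRMT10B, NOTCH2NLA, ANXA11 and PKD1 (0.980 to 0.989). The differences of these 5 lay between 0.07 and 0.14, below that of CLK1 at 0.18.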

How the data were processed

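Total RNA of 6 HaCaT cultures was measured on Affymetrix arrays of 54675 probe sets. The authors deposited log2 values; the submitters' processing notes name RMA and Affymetrix Expression Console 1.2. Array batches and detection calls were not analysed here. The 62 control probe sets were left out, and gene symbols came from the platform annotation (41091 probe sets with 1 symbol, 1801 with several, 11721 with none), of which 41037 matched the RefSeq gene table.

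Groups came from the sample titles. All 54613 probe sets were fitted with limma 3.58.1 in R 4.3.3 (lmFit, eBayes, no block), with Benjamini-Hochberg adjustment over all of them at 0.05, and the code was tested on simulated data. No filter was applied. Precision is limited by having 3 arrays a group. Intervals are at 95% from the moderated fit. Other genes are named by rule: all in a list that passed up to 6, else the 2 of smallest p, and the 5 of highest r. CDH5, PECAM1, VWF, COL1A1, CLOCK, HSPH1, HSPE1, HSF1, MALAT1, TUG1, NKTR and PPIG were chosen after their values were seen. So were BAG3, DNAJB1, HSP90AA1, LUC7L3, SON, CCNL1, RBM5, RBM6 and RBM23. The members and lists were chosen with earlier results of these data known.

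The groups share replicate numbers. Deviations from the group means correlated across probe sets at 0.22, 0.23 and 0.47 for numbers 1, 2 and 3, each over 0.1. Both groups share the replicate 3 offset. Each deviation is taken from a group mean that includes replicate 3, so this offset enters all of these correlations. Arrays of unlike number were not compared. Whether the cultures are paired by number therefore cannot be told from this check, and the main fit has no block. Its calls, SEs and intervals are therefore unpaired, while the control probes were tested within pairs. The replicate block is given where it changes a call.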

Additional observations from a re-analysis of the deposited data

How the results depend on the processing

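The alternatives were the replicate block, 3 other normalizations, leaving out probe sets of low mean, 1 probe set per gene, trend and robust variance, array weights, other thresholds and leaving out arrays. No difference of a member set that passed changed sign in any of them. The count of member sets that passed higher, 1 with all arrays, was 2 with the replicate block, without probe sets of low mean, with 1 probe set per gene, with array weights, at a threshold of 0.1 and with both arrays numbered 3 left out, where CLK3 was added. The count that passed lower, 2, was 4 with the replicate block, with array weights and with both arrays numbered 3 left out, 3 with cyclic loess and at a threshold of 0.1, where CIRBP 200811_at was added, and 1 with 1 probe set per gene, which keeps fewer sets. At 0.01 both counts were 0. Leaving out 1 array gave 0 to 1 higher and 0 to 2 lower. The number of genes whose probe sets differed, 2, was 1 with quantile normalization repeated and at 0.01, and 0 to 1 with 1 array left out. Of the list genes, 3 were higher with the replicate block and with array weights, 2 at 0.1 and with the mean of all probe sets, and 0 at 0.01, against 1, with 0 to 1 when 1 array was left out. With the block 2 were lower (CXCL8 and HIPK3) and with array weights 1 (HIPK3), against 0. The cause of these shifts was not tested. All 102 levels recomputed under other normalizations moved by less than 1 SD. Detection calls were not used, so it is not known which dim sets lie above background.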

Other observations

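Genes next to the members on the chromosome, the nearest protein-coding gene on each side with a probe set of its own in the RefSeq table of GRCh38.p14, did not follow them past the threshold. Of 14 such neighbours 0 passed in limma, 0 passed with the replicate block, and 4 had an unadjusted p under 0.05 (11.3% of all genes did), with differences from -0.33 to 0.38. Beside CIRBP lay MIDN (-0.13 ± 0.15) and FAM174C (0.22 ± 0.11), and beside RBM3 lay TBC1D25 (0.11 ± 0.14) and WDR13 (-0.33 ± 0.12; SE for each). Beside RSRP1 lay SYF2, a splicing factor gene (0.38 ± 0.15), and TMEM50A (0.26 ± 0.11), both on the same side of 0 as RSRP1, with limma adjusted p of 0.412 and 0.495. WDR13 lay on the same side of 0 as RBM3 (limma adjusted p = 0.397), and TBC1D25 on the other. Beside CLK3 lay ARID3B (-0.06) and EDC3 (0.12). The 4 with an unadjusted p under 0.05 were WDR13, SYF2, TMEM50A and, beside CLK1, PPIL3 (-0.28).

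The antisense transcript CIRBP-AS1 had 2 probe sets. On 1552868_at it read 4.77, 4.93 and 5.17 at ambient and 4.81, 4.78 and 5.24 under negative pressure, a difference of -0.01 ± 0.16 (SE; limma adjusted p = 0.993). On 239126_at it stood at 0.04 ± 0.18 (adjusted p = 0.978). The groups overlapped on both.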
